A study of Mus musculus with 9 samples.

Results

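The cytosolic ribosome carries one copy of nearly every ribosomal protein, and each of these proteins has its own gene. The genes described here are the 88 of 27179 counted mouse genes whose symbol begins with Rpl or Rps and a digit, or is Rplp0, Rplp1, Rplp2 or Rpsa. Of 134 genes with such a symbol, 33 named as pseudogenes, 10 genes of the ribosomal S6 kinase family, Rps19bp1 and 2 genes that RefSeq does not list as protein coding were left out. The 88 genes comprised 34 named for the small 40S subunit and 54 named for the large 60S subunit. By name, 77 were the standard ribosomal protein genes and 11 were paralogs or retrogenes, among them Rps27l, Rpl3l, Rpl22l1 and Rps27rt. The choice used symbols and biotypes only, and was made with earlier results of these data known.

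Small-subunit proteins help to bind and decode the mRNA, and large-subunit proteins surround the centre where peptide bonds form and the tunnel through which the new chain leaves. Most of these mRNAs are short, abundant and begin with a pyrimidine-rich tract, the TOP motif, through which mTORC1 and La-related proteins control their translation. Their genes lie scattered over the genome, and most have many processed pseudogenes, which are near-copies of the mRNA inserted elsewhere. Loss of 1 copy of several of these genes in humans causes Diamond-Blackfan anaemia, and ribosomal proteins left without a ribosome can stabilise p53 by binding its ubiquitin ligase Mdm2.

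Polyadenylated RNA came from alveolar macrophages, the phagocytes of the lung airspaces, sorted from the lungs of C57BL/6 mice aged 1 week. The 2 groups were 5 biological replicates with the Suz12 cKO genotype, a conditional knockout of a core subunit of Polycomb repressive complex 2, and 4 wild type biological replicates. The promoter driving the recombinase, the deleted exons, the sorting gate, the sex of the mice and any pooling of mice were not given in the labels, so the p-values measure the spread between these libraries. Total gene counts ranged from 18.6 to 45.6 M (M, 1e6) in Suz12 cKO libraries and from 13.8 to 25.3 M in wild type libraries. Suz12 (chr11:79993106-80034123) stood at 11.9, 14.7, 21.8, 13.1 and 18.5 counts per 1e6 (CPM) in Suz12 cKO libraries 1 to 5, against 67.5, 76.7, 51.7 and 70.7 CPM in wild type libraries 1 to 4, and the groups did not overlap (log2 fold change -2.06 ± 0.18, SE, adjusted p = 1.69e-05, edgeR). All 13 listed markers of alveolar macrophages were counted, with summed levels of 19007 to 45585 CPM in Suz12 cKO libraries and 25657 to 63671 CPM in wild type libraries. Lpl and Marco of this list were called higher and Car4 and Cd68 lower, against 8.97% higher and 11.0% lower over all genes tested. With gene length fitted as a smooth curve (described further on), 5 of the 13 were higher and none lower. Over all genes the shares in that fit were 9.42% higher and 6.78% lower. The summed levels of listed neutrophil markers were 57.3 to 180.5 CPM in Suz12 cKO libraries and 43.3 to 51.8 CPM in wild type libraries, and Csf3r, one of them, was called higher. Erythroid markers summed to 23.5 to 311 CPM in Suz12 cKO libraries and 24.6 to 116 CPM in wild type libraries, and epithelial markers to 11.4 to 57.9 CPM in Suz12 cKO libraries and 13.9 to 35.4 CPM in wild type libraries. Endothelial markers summed to 85.2 to 149 CPM in Suz12 cKO libraries and 126 to 176 CPM in wild type libraries, mostly Vwf. The 5 tested endothelial markers had a median log2 fold change of 0.87, and none was called. Fibroblast, T and B cell markers summed to at most 17.7 CPM in any library, with Il7r, a T cell marker, called lower. The 4 tested fibroblast markers had a median log2 fold change of 1.68, and none was called. The part of such cells in the results was not tested.

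Near-identical copies decide which reads can be assigned to a ribosomal protein gene, so a few stretches of coding sequence are shown first. In each line the letters in capitals are the bases at which member and copy differ, and each stretch is as long as 1 sequencing read, 85 bases. Rps27 and its retrogene Rps27rt had the same 252 coding bases in GENCODE vM21, and the stretch from coding base 1 to 85 stands for both. Rpl23 (chromosome 11) and Gm9794 (chromosome 6) differed at 1 of 420 coding bases, and bases 211 to 295 are shown.
Rps27 and Rps27rt: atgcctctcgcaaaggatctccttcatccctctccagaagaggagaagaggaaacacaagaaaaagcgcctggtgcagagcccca
Rpl23: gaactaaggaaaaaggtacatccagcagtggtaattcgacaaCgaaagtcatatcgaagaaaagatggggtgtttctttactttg
Gm9794: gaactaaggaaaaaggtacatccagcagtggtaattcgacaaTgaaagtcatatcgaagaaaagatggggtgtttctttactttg

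The share of all counts that fell in the ribosomal protein genes was lower in every Suz12 cKO library than in any wild type library. It averaged 2.07 ± 0.152% in Suz12 cKO libraries (SD, n = 5) and 2.93 ± 0.320% in wild type libraries (SD, n = 4). The Suz12 cKO libraries ranged from 1.94 to 2.30% and the wild type libraries from 2.48 to 3.23%. Suz12 cKO library 4, the highest of its group, and wild type library 2, the lowest of its group, lay closest to each other. In these bulk samples, fewer cells of a type and less RNA per cell cannot be told apart. The 5 genes with most counts, Rps3, Rplp0, Rplp1, Rpl8 and Rpl4, together held 26.4% of the counts of all 88.

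The split between the subunits also separated the groups. Genes named for the 60S subunit held 54.6 ± 0.388% of ribosomal protein gene counts in Suz12 cKO libraries (SD, n = 5) and 51.0 ± 0.430% in wild type libraries (SD, n = 4). The ranges were 54.0 to 55.1% in Suz12 cKO libraries and 50.4 to 51.5% in wild type libraries, with no overlap. In the deposited table the tested 40S genes were shorter, with a median length of 608.5 bases, than the tested 60S genes, with a median of 734 bases.

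**Figure D1:**
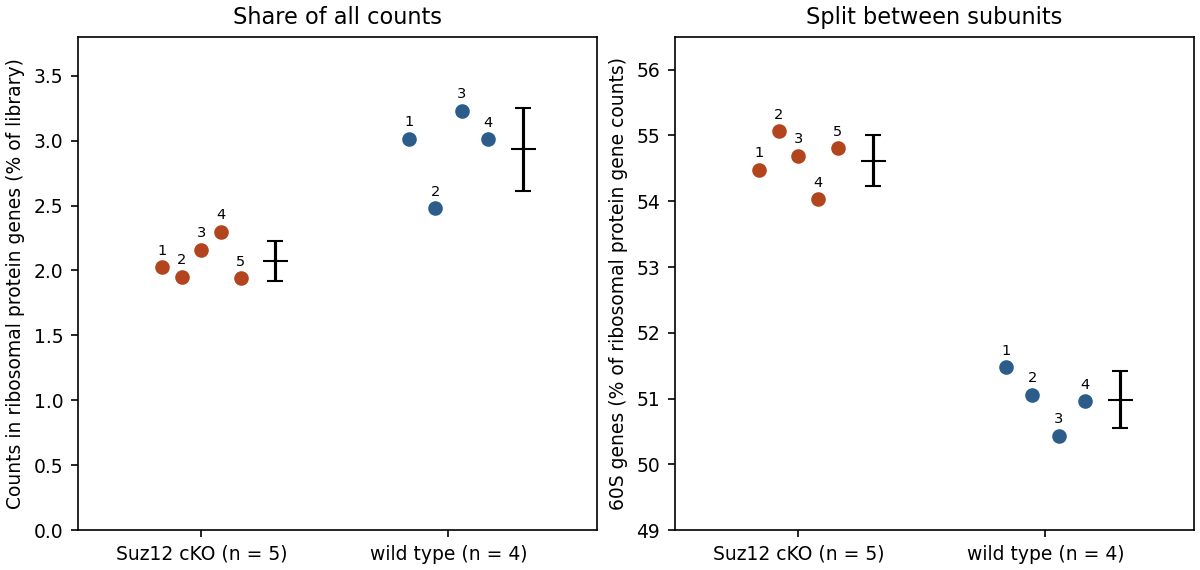
Percent of each library's counts in the 88 ribosomal protein genes (left) and percent of those counts in genes named for the 60S subunit (right, axis from 49%). Points are libraries with their replicate number, and the bar beside each group is the mean with its SD. Suz12 cKO libraries lay at 1.94 to 2.30% and wild type libraries at 2.48 to 3.23% on the left.

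Gene by gene, 73 of the 87 ribosomal protein genes that passed the filter on low counts were lower in Suz12 cKO macrophages and none was higher, at an adjusted p below 0.05 in edgeR's quasi-likelihood test with Benjamini-Hochberg adjustment over 12840 genes. Over all genes tested, 11.0% were called lower and 8.97% higher. The median log2 fold change (Suz12 cKO over wild type) was -0.65 over the 87 genes and 0.04 over all genes tested, and 86 of the 87 values were below 0. In 57 of the 73, every Suz12 cKO library lay below every wild type library, which held for 9.87% of all genes tested, and in the other 16 the groups overlapped. No member had every Suz12 cKO library above every wild type library, which held for 10.9% of all genes tested. Of the 40S genes, 31 of 34 fell, with a median log2 fold change of -0.80, and of the 60S genes 42 of 53, with a median of -0.63.

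**Figure D2:**
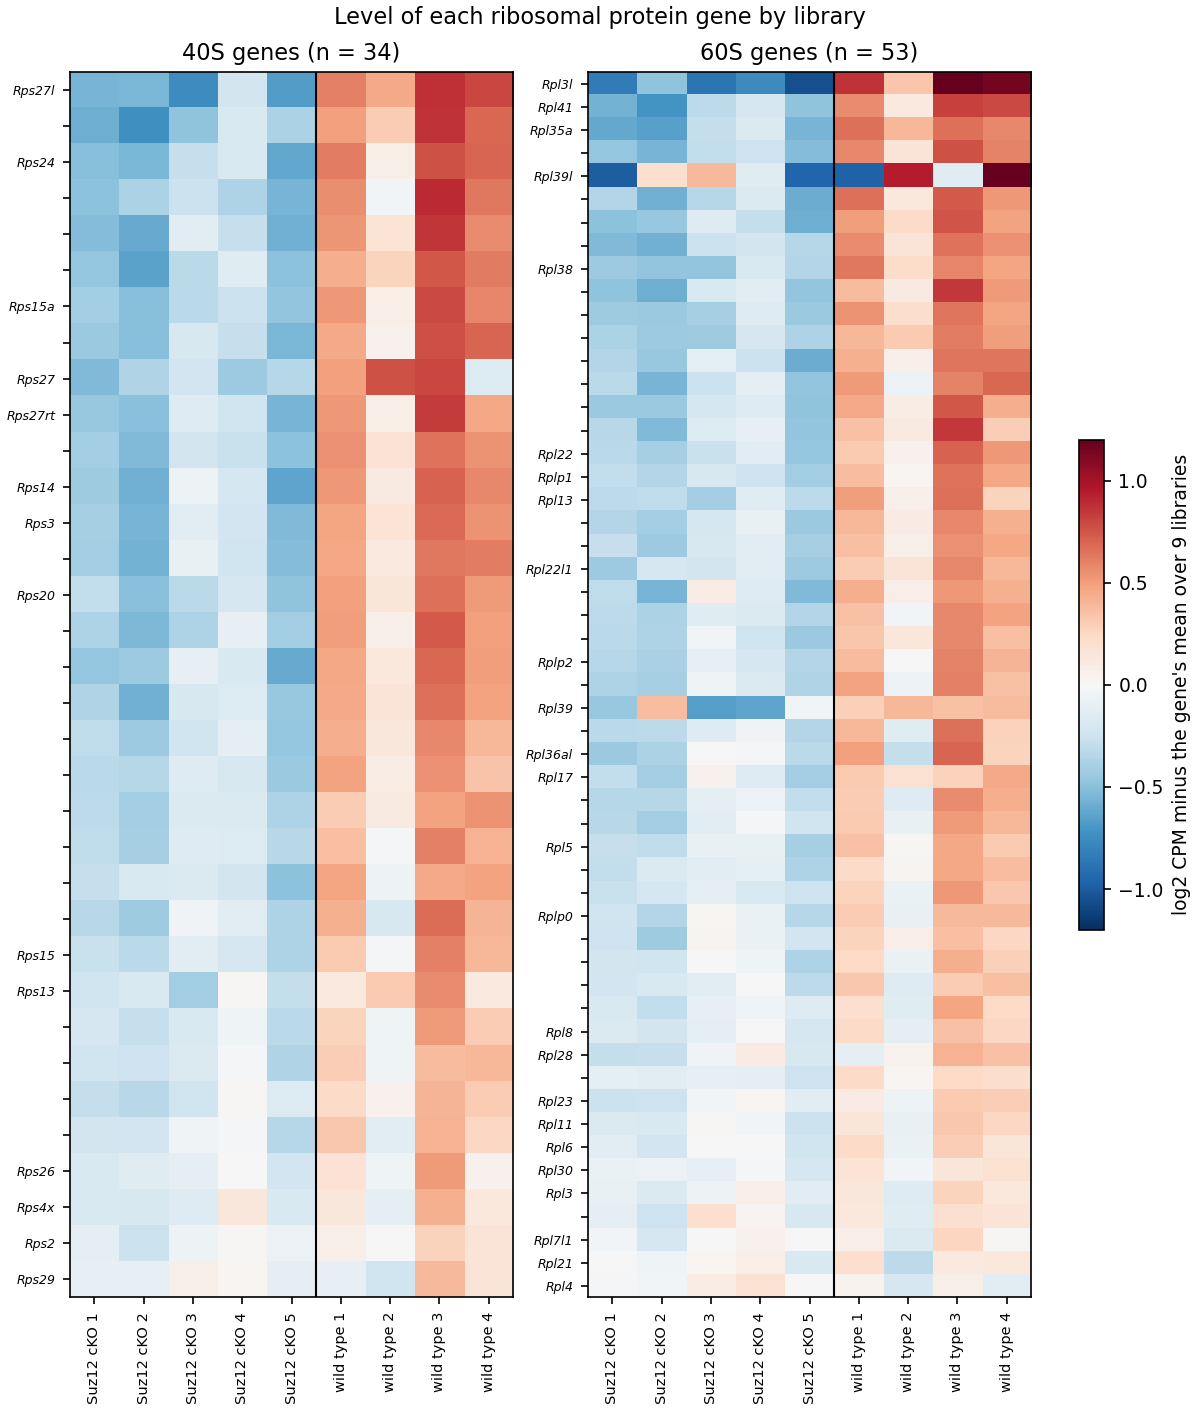
Level of each of the 87 tested ribosomal protein genes (rows) in each library (columns), as log2 CPM minus the gene's mean over the 9 libraries, with blue lower and red higher. Genes run from the lowest to the highest log2 fold change within the 40S (left) and 60S (right) genes. Names are given for genes the text describes. Suz12 cKO columns are mostly blue and wild type columns mostly red, with wild type library 2 paler than the other wild type libraries.

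The libraries of a group did not all shift equally. The median deviation of the 87 genes from their own mean over 9 libraries, on the log2 CPM scale, was -0.32, -0.39, -0.15, -0.14 and -0.37 in Suz12 cKO libraries 1 to 5, against 0.37, 0.06, 0.58 and 0.41 in wild type libraries 1 to 4. Suz12 cKO libraries 3 and 4 thus lay nearest to the wild type group and wild type library 2 nearest to the Suz12 cKO group. Without wild type library 2, 78 of the 87 genes were called lower, and without wild type library 1 or 3, 64 were. Each library left out in turn gave between 64 and 78 genes lower and none higher, and 64 of the 73 were called lower every time.

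The 5 genes with the highest counts per kilobase of gene length were all called lower in the fit without a curve of length. With gene length fitted as a smooth curve (described further on), the calls of Rplp1, Rps15 and Rpl8 ended, at log2 fold changes of -0.088, -0.017 and 0.086 (adjusted p = 0.367, 0.887 and 0.338, edgeR), and with length and level fitted, that of Rps14 ended too (adjusted p = 0.0811, edgeR). Rplp1 (chr9:61913283-61914510), which encodes an acidic protein of the stalk that recruits elongation factors, had 1949, 1865, 2082, 2008 and 1783 CPM per kb in Suz12 cKO libraries, against 3091, 2433, 3745 and 3285 CPM per kb in wild type libraries. Its groups did not overlap, and its log2 fold change was -0.70 ± 0.11 (SE, adjusted p = 0.00046 in edgeR's quasi-likelihood test).

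Rps14, a 40S protein whose loss of 1 copy underlies the anaemia of the human 5q deletion syndrome, averaged 970.1 ± 168 CPM per kb in Suz12 cKO libraries (SD, n = 5) and 1757 ± 294 CPM per kb in wild type libraries (SD, n = 4). The highest Suz12 cKO library of Rps14 stood at 1200.3 CPM per kb and the lowest wild type library at 1345 CPM per kb. Rps15 (chr10:80292431-80294114), a protein of the 40S head, averaged 1013 ± 65.7 CPM per kb in Suz12 cKO libraries and 1535 ± 265 CPM per kb in wild type libraries, again without overlap. Rpl8 (chr15:76904071-76906318), which lies close to the peptidyl transferase centre, had the smallest difference of these genes. It stood at 972, 942, 1017, 1094 and 954 CPM in Suz12 cKO libraries, against 1288, 1015, 1398 and 1308 CPM in wild type libraries, with wild type library 2 inside the Suz12 cKO range (log2 fold change -0.33 ± 0.09, SE, adjusted p = 0.0213, edgeR). The call for Rpl8 was lost when any of Suz12 cKO libraries 1, 2 or 5 or wild type libraries 1, 3 or 4 was left out, with adjusted p between 0.0502 and 0.0763.

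The lowest log2 fold changes belonged to 2 paralogs and 3 short standard genes. Rpl3l (chr17:24727826-24736143), the paralog of Rpl3 known from heart and skeletal muscle, was barely counted, at 1.56, 2.02, 1.52, 1.66 and 1.34 CPM in Suz12 cKO libraries, against 5.25, 3.61, 9.30 and 6.40 CPM in wild type libraries. The groups did not overlap, and the log2 fold change was -1.91 ± 0.35 (SE, adjusted p = 0.00169, edgeR). Rpl3 itself averaged 248 ± 16.7 CPM in Suz12 cKO libraries (SD, n = 5) and 280.1 ± 32.9 CPM in wild type libraries (SD, n = 4), and was not called (log2 fold change -0.17, adjusted p = 0.209, edgeR). Its level is uncertain, as pseudogene copies of Rpl3, described further on, held more counts than Rpl3.

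Rps27l (chr9:66944624-66949522), a paralog of Rps27 that p53 induces in human and mouse cells, had 75.3, 75.6, 65.5, 95.2 and 69.6 CPM in Suz12 cKO libraries, against 168, 152, 203 and 192 CPM in wild type libraries. Every Suz12 cKO library was below every wild type library (log2 fold change -1.23 ± 0.12, SE, adjusted p = 2.96e-05, edgeR). Rpl41 (chr10:128548110-128549168) encodes the shortest ribosomal protein, with 75 coding bases before the stop codon. It had 226, 204, 271, 292 and 239.9 CPM in Suz12 cKO libraries, against 497, 364, 593 and 580.3 CPM in wild type libraries. Rpl35a (chr16:33056453-33060189), a 60S protein gene mutated in Diamond-Blackfan anaemia, had 69.5, 67.4, 86.9, 93.9 and 72.3 CPM in Suz12 cKO libraries, against 168, 139.8, 167 and 158 CPM in wild type libraries. The groups did not overlap for Rpl41 or Rpl35a either, and their log2 fold changes were -1.05 ± 0.14 and -1.02 ± 0.11 (SE).

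At the other end, 14 genes were not called, 11 of the 60S and 3 of the 40S subunit. Rpl4 (chr9:64173387-64178562), which lines part of the exit tunnel, was the only one with a value above 0. It had 889, 881, 961, 1022 and 907 CPM in Suz12 cKO libraries, against 927, 782, 946 and 822 CPM in wild type libraries, and the groups overlapped (log2 fold change 0.10 ± 0.08, SE, adjusted p = 0.434, edgeR). Rpl21, a 60S protein, had 61.9, 59.5, 62.6, 65.3 and 54.3 CPM in Suz12 cKO libraries, against 70.8, 49.6, 67.0 and 67.2 CPM in wild type libraries. Rps29, a zinc-binding 40S protein, had 41.6, 41.5, 46.6, 45.1 and 41.1 CPM in Suz12 cKO libraries, against 41.4, 37.6, 58.0 and 49.5 CPM in wild type libraries. In these genes the groups overlapped, with log2 fold changes of -0.07 ± 0.11 and -0.11 ± 0.13 (SE) for Rpl21 and Rps29.

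Rpl7l1 is the paralog of Rpl7 whose yeast relative is a ribosome assembly factor, not a subunit of the finished ribosome. It had 114, 102, 116, 121 and 118 CPM in Suz12 cKO libraries, against 124, 104, 139.7 and 118 CPM in wild type libraries, without a call (log2 fold change -0.09 ± 0.09, SE, adjusted p = 0.579, edgeR). Others not called, named after their values were seen, were Rpl3, Rpl6, Rpl11, Rpl28, Rpl30, Rpl39, Rpl39l, Rps2 and Rps4x. Rpl11, which together with Rpl5 binds Mdm2 in the 5S ribonucleoprotein particle, had a log2 fold change of -0.29 (adjusted p = 0.0854, edgeR), and Rpl5 one of -0.52 (adjusted p = 0.00256, edgeR), although only 39.5% of Rpl11 and 8.06% of Rpl5 read-length windows were unique. Calls near the threshold were those of Rps26, Rpl23 and Rps13, at adjusted p of 0.0463, 0.0483 and 0.0493 (edgeR).

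Of the other paralogs, Rpl22l1, which can take the place of Rpl22, had 37.6, 44.2, 43.6, 46.3 and 37.6 CPM in Suz12 cKO libraries, against 62.9, 56.7, 75.9 and 67.3 CPM in wild type libraries, without overlap. Rpl22 averaged 208 ± 18.5 CPM in Suz12 cKO libraries (SD, n = 5) and 345 ± 66.8 CPM in wild type libraries (SD, n = 4). The log2 fold changes of the pair were -0.65 ± 0.11 for Rpl22l1 and -0.73 ± 0.12 for Rpl22 (SE), and both were called lower. With the curve of length, Rpl22l1 was at -0.057 and not called (adjusted p = 0.71, edgeR), while Rpl22 was at -0.66 and still called (adjusted p = 0.00102, edgeR). Rpl36al, a near-identical paralog of Rpl36a, had 68.8, 72.0, 93.6, 92.4 and 75.1 CPM in Suz12 cKO libraries, against 132, 76.9, 153 and 113 CPM in wild type libraries, with wild type library 2 inside the Suz12 cKO range. It was called lower (log2 fold change -0.56 ± 0.17, SE, adjusted p = 0.029, edgeR), but not when Suz12 cKO library 1, 2 or 5 or wild type library 1, 3 or 4 was left out (adjusted p between 0.057 and 0.101). With the curve of length, Rpl36al was at 0.032 and not called (adjusted p = 0.879, edgeR). Rpl39l, known from the testis, stood at 1.04, 2.43, 2.81, 1.92 and 1.07 CPM in Suz12 cKO libraries, against 1.05, 4.13, 1.91 and 6.95 CPM in wild type libraries, with overlap and no call. Rpl10l, the male germ cell paralog of Rpl10, had 0 of 268.8 M counts over the 9 libraries, which allows up to 0.0112 CPM by a limit of 3 counts. Rps4l, a Rps4x relative that RefSeq does not list as protein coding and that is not among the 88, was higher, at 80.2 ± 4.15 CPM in Suz12 cKO libraries (SD, n = 5) and 59.8 ± 8.24 CPM in wild type libraries (SD, n = 4).

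Ribosomal protein genes are short, and the median log2 fold change of other short genes was below 0 as well. The 88 genes had a median length of 693.5 bases in the deposited table, against 1976 bases over all counted genes. Over the whole length range of the tested members, 328 to 5136 bases, the 10729 other tested genes had a median log2 fold change of 0.02, a gap of -0.67 to the ribosomal protein genes. Between the 10th and 90th percentile of member length, 448.6 to 1605.4 bases, the 2781 other genes had a median of -0.23, and 26.1% of them were called lower and 2.98% higher. Their median length was 1119 bases, against 684 bases for the tested members. When the mean level was also kept between those percentiles of the members, 825 other genes remained, with a median of -0.35 and 52.4% called lower. The libraries ranked nearly alike in both sets, with only Suz12 cKO libraries 3 and 4 exchanged. The median deviation of the other genes of similar length was -0.08, -0.14, -0.01, -0.03 and -0.13 in Suz12 cKO libraries 1 to 5, against 0.17, 0.02, 0.23 and 0.20 in wild type libraries 1 to 4, with wild type library 2 again lowest and wild type library 3 highest of its group.

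Within bands of length the ribosomal protein genes lay below the other genes throughout. The bands were not matched for level, and in every band the other genes had a lower median level. From 328 to 499 bases their median log2 CPM was 3.68, against 6.79 for the ribosomal protein genes. From 328 to 499 bases, 17 ribosomal protein genes had a median log2 fold change of -0.80 and 210 other genes one of -0.61. From 500 to 699 bases the medians were -0.81 over 27 ribosomal protein genes and -0.43 over 357 other genes. From 700 to 999 bases they were -0.62 over 23 ribosomal protein genes and -0.32 over 647 other genes. From 1000 to 1999 bases they were -0.47 over 16 ribosomal protein genes and -0.09 over 2952 other genes. The longest band, from 2000 to 5136 bases, held only 4 ribosomal protein genes, with a median of -0.63 against 0.09 over 6563 other genes. Rps15a and Rpl5 were among these 4, and their matched GENCODE vM21 transcripts had 390 and 891 coding bases. Among the 87 ribosomal protein genes themselves, log2 fold change and log2 length had a Pearson r of 0.25 and a Spearman rho of 0.38, a description across genes that share the same libraries. What lies behind the relation with length was not tested.

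**Figure D3:**
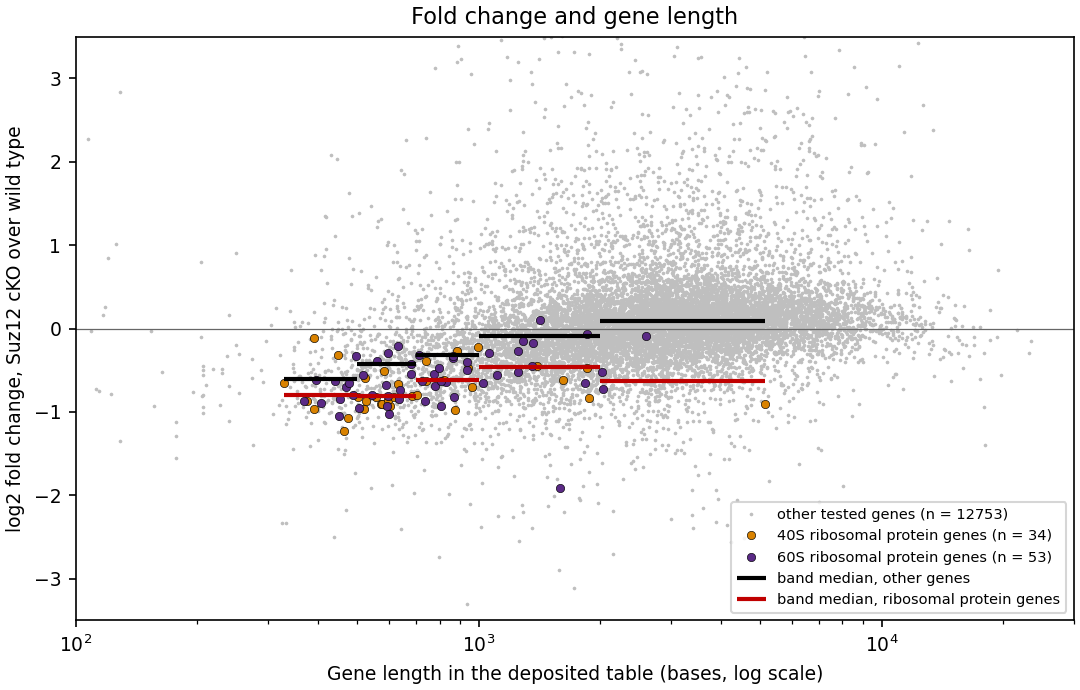
Log2 fold change (Suz12 cKO over wild type) against gene length on a log scale for 34 tested 40S and 53 tested 60S ribosomal protein genes and the other tested genes in grey. Red and black lines are medians of ribosomal protein genes and other genes in bands of length, and 119 other genes lie beyond the vertical and 18 beyond the horizontal axis. The red line is below the black line in all 5 bands, which were not matched for level.

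With a smooth curve of length fitted in each library and entered as an offset, 34 of the 87 ribosomal protein genes were lower and 4 were higher, against 6.78% lower and 9.42% higher over all genes tested. The median log2 fold change of the 87 was then -0.23. The 4 higher genes were Rpl4 (0.30, adjusted p = 0.00521), Rps29 (0.53, adjusted p = 0.00224), Rps26 (0.29, adjusted p = 0.0158) and Rpl30 (0.31, adjusted p = 0.016), all by edgeR. With a curve of both length and level, fitted without the ribosomal protein genes, 21 were lower and 9 higher, against 5.96% and 11.2% over all genes, and the median was -0.13. Rpl3l had the lowest value and Rps29 the highest under both curves.

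All 21 genes lower under the curve of length and level were also lower without it and under the curve of length alone. They included the 5 genes with the lowest values in the unadjusted fit. Rps3, a 40S protein at the mRNA entry channel with the most counts of all 88 genes, had log2 fold changes of -0.83, -0.74 and -0.59 without a curve, with length, and with length and level (adjusted p = 0.000222, 0.000231 and 0.000238, edgeR). It had 1246, 1119, 1499, 1396 and 1136 CPM in Suz12 cKO libraries, against 2273, 1836, 2622 and 2393 CPM in wild type libraries. Rps15a, a 40S protein gene and the longest of the members in the deposited table, had -0.91, -1.001 and -0.91 in the same 3 fits. Its deposited length was 5136 bases, and its matched GENCODE vM21 transcript had 390 coding bases. The curves used the deposited length, and whether this is the length of the expressed mRNA was not tested. Levels of Rps15a were 192, 179, 203, 214 and 183 CPM in Suz12 cKO libraries, against 367, 269, 441 and 384 CPM in wild type libraries. Rps3 and Rps15a, like Rpl3, Rpl5, Rpl11, Rpl22, Rpl23, Rps27 and Rps27rt, were singled out after their values were seen.

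**Figure D4:**
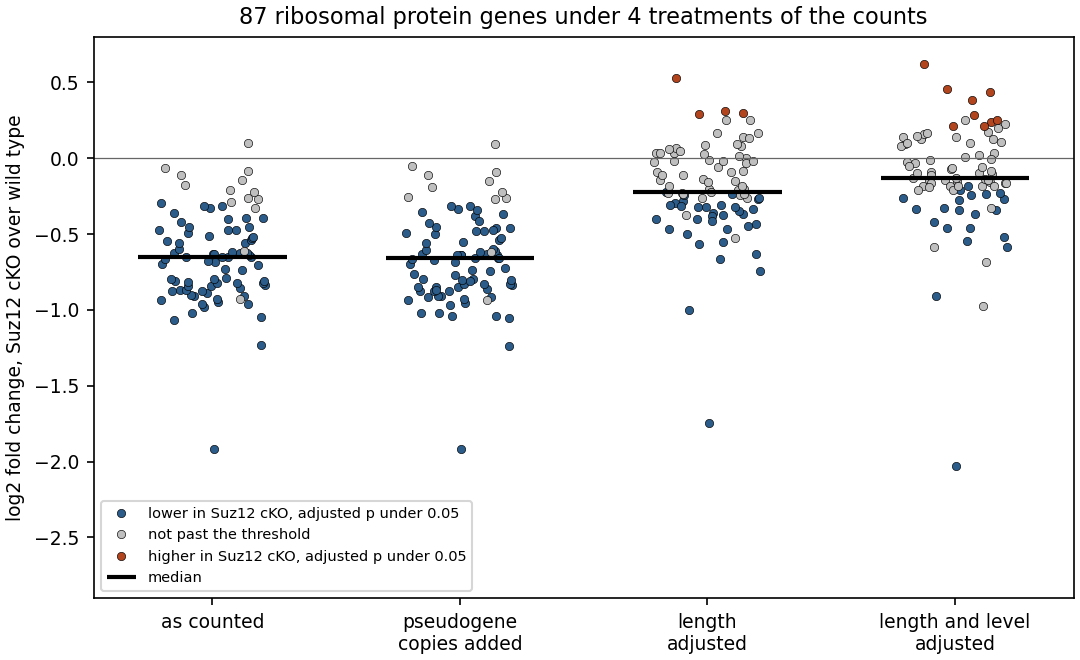
Log2 fold change (Suz12 cKO over wild type) of the 87 tested ribosomal protein genes, 1 point each, as counted, with pseudogene copies added, with a curve of length, and with a curve of length and level. Blue points were lower and red points higher in Suz12 cKO macrophages at an adjusted p below 0.05 (edgeR), and black lines are medians. The number lower is 73, 75, 34 and 21 from left to right, and the number higher 0, 0, 4 and 9.

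Many reads of these genes cannot be assigned to 1 place. A GENCODE vM21 transcript was matched to 85 of the 88 genes and cut into windows of 85 bases, the read length. In the median gene 53.8% of the windows occurred in no other gene's transcript, overlapping and read-through transcripts included. All windows were unique in 5 genes, fewer than 50% in 37 and fewer than 20% in 13. Of the tested genes with fewer than 50% unique windows, 32 of 37 were lower, with a median log2 fold change of -0.56, and of those with 50% or more, 38 of 47 were lower, with a median of -0.70. Over all genes tested, 11.0% were lower. Of genes whose windows were all unique, Rps3, Rpl3l and Rpl39l had log2 fold changes of -0.83, -1.91 and -0.93, and Rpl39l was not called.

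The deposited table counts 80 pseudogene rows that share at least 10 such windows with 43 of the ribosomal protein genes. These copies held 0.679 ± 0.0503% of all counts in Suz12 cKO libraries (SD, n = 5) and 0.975 ± 0.103% in wild type libraries (SD, n = 4). As a share of members and copies together they held 24.7 ± 0.097% in Suz12 cKO libraries and 24.96 ± 0.266% in wild type libraries (SD). For 20 of the 43 genes the copies had more counts than the gene itself. Rows that neither GENCODE nor RefSeq lists as pseudogenes were not taken as copies. Among these, Gm5148 shared 343 windows with Rps23 and had 115914 counts, against 41730 for Rps23. Gm9794, the copy of Rpl23 shown above, had 184378 counts over the 9 libraries and Rpl23 had 54110. The retrogene Rps27rt had 72275 counts and Rps27, whose coding sequence is the same, 1569, with 1.53% of Rps27 windows unique.

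The copies were mostly lower too. Of 74 tested copies 53 were lower and none was higher, with a median log2 fold change of -0.67, against 11.0% lower and 8.97% higher over all genes tested. The copies were not set beside other genes of similar length. Rps27rt had 206, 199.7, 253, 239 and 191 CPM in Suz12 cKO libraries, against 404, 298, 505 and 389 CPM in wild type libraries, without overlap. Rps27 had 4.14, 4.66, 5.10, 4.41 and 4.70 CPM in Suz12 cKO libraries, against 8.45, 10.2, 10.5 and 5.35 CPM in wild type libraries. The groups of Rps27 did not overlap either, and the log2 fold changes were -0.87 ± 0.13 and -0.90 ± 0.24 (SE) for Rps27rt and Rps27. Neither was called with the curve of length (adjusted p = 0.0708 for Rps27rt and 0.357 for Rps27, edgeR). With the counts of the copies added to their genes, 75 of 87 ribosomal protein genes were lower and none higher, against 10.7% lower and 8.69% higher over all genes tested in that fit. Copies of Rpl3, Rpl28 and Rpl30, genes that were not called, had 73982, 35579 and 72615 counts, against 69150, 3563 and 28347 for the genes. The level of a gene whose copies take many of the counts, such as these, Rps27 or Rpl23, is therefore uncertain. Annotated spans, introns included, also overlap another counted gene, as for Rpl4 with Snord16a, Rpl35a with Iqcg and Rps27rt with Osbpl10. Whether counts are shared in these overlaps was not tested.

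**Figure D5:**
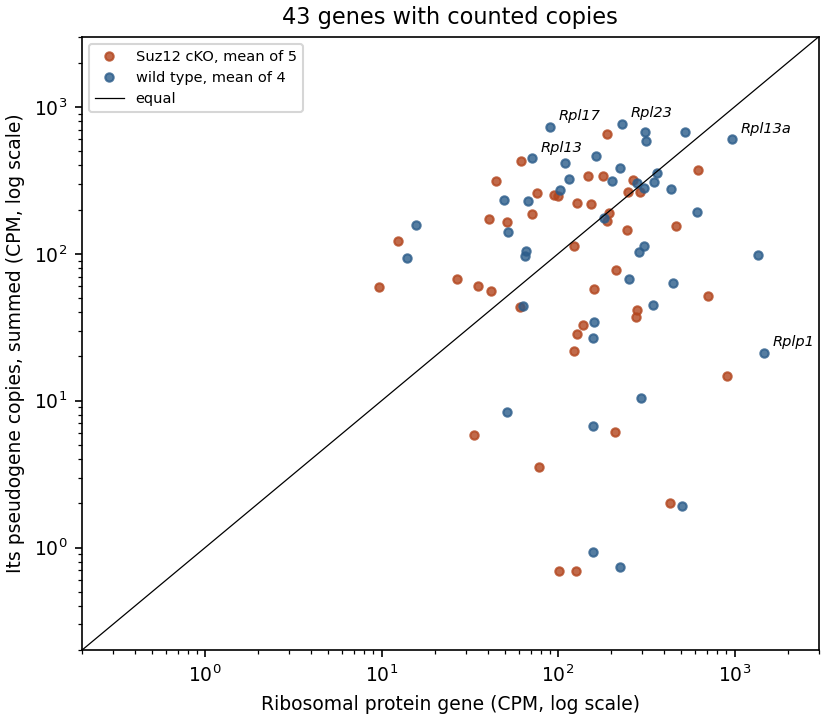
Mean level of each of 43 ribosomal protein genes (horizontal, CPM, log scale) and summed mean level of its counted pseudogene copies (vertical, CPM, log scale) in Suz12 cKO libraries (mean of 5) and wild type libraries (mean of 4). Points above the diagonal have more counts in the copies than in the gene, which is so for 20 genes over the 9 libraries, among them Rpl23, Rpl17 and Rpl13.

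The promoters of these genes had letters in common that the choice of members did not use. RefSeq promoter windows of GRCm38.p6, from 250 bases before to 50 after the annotated start, were matched to 68 of the 88 genes. The pyrimidine run CTTTC, on the sense strand within 25 bases before to 50 after the start, was in 34 of the 68, against 11.1% of 27025 genes. The longer CTCTTTCC, which contains it, was in 10.3% against 0.389%. On either strand of the whole window, CCGGAAG, the core of sites of ETS-family factors, was in 38.2% against 9.93%, and CGCGAGA in 20.6% against 2.92%, while TATAA was in 27.9% against 28.0%. Among the matched genes, without a curve of length, the size of the change was similar with and without CTTTC. Of 34 genes with it 29 were lower, with a median log2 fold change of -0.65. Of 33 tested genes without it 29 were lower, with a median of -0.68. Of the 20 genes without a matched promoter window 15 were lower, with a median of -0.47. Over all genes tested 11.0% were lower, and over the 87 tested members 83.9%. The stretches below run from 40 bases before to 20 bases after the start, with CTTTC in capitals. They are shown because the run lies within a few bases of the start, whether or not the gene was called lower. The calls of Rps26 and Rpl28 differed although their values were nearly the same, and with the curve of length Rps26 was called higher.
Rpl35a (log2 fold change -1.02, chr16:33056442-33056501, plus strand): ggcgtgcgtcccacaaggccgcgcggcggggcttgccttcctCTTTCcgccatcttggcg
Rpl38 (-0.87, chr11:114668540-114668599, plus strand): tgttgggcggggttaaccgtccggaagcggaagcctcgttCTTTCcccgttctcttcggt
Rplp2 (-0.63, chr7:141447611-141447670, plus strand): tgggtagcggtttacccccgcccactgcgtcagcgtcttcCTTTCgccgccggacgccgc
Rps26 (-0.32, chr10:128626487-128626546, minus strand): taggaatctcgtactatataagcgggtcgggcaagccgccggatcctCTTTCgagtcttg
Rpl28 (-0.33, not called, chr7:4792925-4792984, plus strand): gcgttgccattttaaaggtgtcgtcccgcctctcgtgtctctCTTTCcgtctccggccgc

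Among other genes of translation, Fau encodes the ribosomal protein eS30 fused to a ubiquitin-like protein, and its symbol keeps it out of the 88. It had 194, 168, 244, 214 and 164 CPM in Suz12 cKO libraries, against 326, 277, 366 and 363 CPM in wild type libraries, and was called lower (log2 fold change -0.76 ± 0.12, SE, adjusted p = 0.000745, edgeR). Of 17 other TOP mRNA genes, 8 were lower and 3 higher, with a median log2 fold change of -0.18, against 11.0% lower and 8.97% higher and a median of 0.04 over all genes tested. Under the curve of length 6 were lower and 3 higher, and Tpt1 was no longer called (adjusted p = 0.0546, edgeR). The 8 that fell were Naca and Btf3, subunits of the nascent chain-associated complex, the elongation factor 1 subunits Eef1b2 and Eef1d, the initiation factor 3 subunits Eif3e and Eif3h, Tpt1 and Rack1, a protein of the 40S head. Naca averaged 208 ± 14.9 CPM in Suz12 cKO libraries and 320.0 ± 51.4 CPM in wild type libraries (SD, n = 5 and 4), and Eef1b2 averaged 361 ± 37.1 CPM in Suz12 cKO libraries and 577 ± 108 CPM in wild type libraries. Tpt1 averaged 721 ± 55.6 CPM in Suz12 cKO libraries and 1082 ± 163 CPM in wild type libraries.

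The other TOP mRNA genes on the list that rose numbered 3. Eef2, the translocase of elongation, averaged 2447 ± 47.4 CPM in Suz12 cKO libraries (SD, n = 5) and 2107 ± 86.8 CPM in wild type libraries (SD, n = 4), and Pabpc1, the poly(A)-binding protein, averaged 1024 ± 44.2 CPM in Suz12 cKO libraries and 860.4 ± 40.2 CPM in wild type libraries. Eif4b, a helper of the initiation helicase, averaged 488 ± 14.8 CPM in Suz12 cKO libraries and 411 ± 32.4 CPM in wild type libraries. Their log2 fold changes were 0.22, 0.25 and 0.25 for Eef2, Pabpc1 and Eif4b. With the curve of length, the adjusted p of Eif4b was 0.0595, while Eef2 and Pabpc1 were still called (0.0378 and 0.0168, edgeR).

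Of 36 genes that build ribosomes 5 were higher and 6 lower, with a median log2 fold change of 0.11, shares near the 8.97% higher and 11.0% lower over all genes tested. With the curve of length 8 were higher and 5 lower, with a median of 0.16, against 9.42% higher and 6.78% lower over all genes tested. Among those lower without the curve, Nop10 and Nhp2, subunits of the pseudouridylating H/ACA particles, had log2 fold changes of -0.93 ± 0.13 and -0.58 ± 0.09 (SE). Emg1, a methyltransferase for 18S rRNA, had one of -0.77 ± 0.11. Dkc1, Gnl3, Ncl, Nop58 and Pes1 were the higher ones without the curve. Of 19 genes of RNA polymerases I and III, 1 was higher and 2 lower, again near the shares over all genes tested. Taf1d, a subunit of the selectivity factor of polymerase I, had 30.4, 30.5, 31.2, 35.9 and 34.9 CPM in Suz12 cKO libraries, against 19.0, 23.2, 16.9 and 16.5 CPM in wild type libraries. Polr1c and Polr1d, subunits shared by both polymerases, had log2 fold changes of -0.67 ± 0.11 and -0.56 ± 0.13 (SE).

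Of 15 tested genes of mTORC1 and TOP regulation, 1 rose and 2 fell, near the 8.97% higher and 11.0% lower over all genes tested, so the counts show nothing particular to this list. Rps6kb1, the kinase of Rps6, averaged 47.7 ± 2.17 CPM in Suz12 cKO libraries (SD, n = 5) and 36.9 ± 5.82 CPM in wild type libraries (SD, n = 4). Rheb, the activator of mTORC1, averaged 109.7 ± 13.0 CPM in Suz12 cKO libraries and 145 ± 13.9 CPM in wild type libraries, and the cap-binding protein Eif4e stood at 43.3 to 54.2 CPM in Suz12 cKO libraries and 48.9 to 78.9 CPM in wild type libraries, with overlap for both. Their adjusted p were 0.0362, 0.0116 and 0.0412 for Rps6kb1, Rheb and Eif4e (edgeR), and with the curve of length only that of Eif4e, 0.0372, stayed below 0.05. Of 23 cytosolic initiation factors 6 rose and 5 fell, with a median log2 fold change of 0.01. Over all genes tested 8.97% were higher and 11.0% lower, smaller shares than in these 23. With the curve of length 7 of the initiation factors were higher and 4 lower, against 9.42% higher and 6.78% lower over all genes tested. Eif3i, Eif1ax and Eif2s1, which had the smallest adjusted p of this list, had log2 fold changes of -0.63, -0.74 and -0.63.

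Of 10 genes of ribosome stress and p53, 3 were higher and none lower, with a median log2 fold change of 0.03, against 8.97% higher and 11.0% lower over all genes tested. Pmaip1, a proapoptotic p53 target, had 35.2, 41.2, 45.6, 46.5 and 41.3 CPM in Suz12 cKO libraries, against 18.0, 14.4, 24.0 and 18.1 CPM in wild type libraries, without overlap (log2 fold change 1.18 ± 0.15, SE, adjusted p = 0.000183, edgeR). Sesn2 and Cdkn1a, a stress-induced inhibitor of mTORC1 and a cyclin-dependent kinase inhibitor, had log2 fold changes of 0.73 ± 0.14 and 0.59 ± 0.12 (SE), also without overlap. Rps27l, which p53 also induces, was lower. The 21 genes mutated in Diamond-Blackfan anaemia were all members of the 88. Of these 21, 19 were lower and none higher, with a median log2 fold change of -0.70. Of the 87 tested members 73 were lower and none higher, with a median of -0.65. With the curve of length 11 of the 21 were lower and 2 higher. In that fit 34 of the 87 members were lower and 4 higher, against 6.78% lower and 9.42% higher over all genes tested. Of the Diamond-Blackfan anaemia list, Rps20 averaged 282 CPM in Suz12 cKO libraries (n = 5) and 499.6 CPM in wild type libraries (n = 4). Its log2 fold change was -0.82 ± 0.10 (SE).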

How the data were processed

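Each library is a bulk sample of sorted alveolar macrophages. The deposited files hold raw counts for each Entrez gene beside its length, which the authors made with featureCounts on mm10, per the submitters' processing notes. Aligner, versions, annotation, strand setting and treatment of reads with several matches are not stated there or in the labels. The 9 single-library tables equalled the joint table. Symbols, biotypes and coordinates came from RefSeq (GRCm38.p6), which named 25275 of 27179 identifiers. The other 1904 held 0.999% of counts in Suz12 cKO libraries and 3.39% in wild type libraries and stayed in library totals. Annotated spans of 36 members overlap another counted gene, mostly a small nucleolar RNA. These spans include introns and take no account of strand, so an overlap need not lie in counted exons. Whether reads were shared there was not tested.

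The members and lists were chosen with earlier results of these data known. The counts were tested in R 4.3.3 with edgeR 4.0.16 (quasi-likelihood, robust, TMM scaling, filterByExpr, no covariate), with Benjamini-Hochberg adjustment over all genes tested and a threshold of 0.05. Alternatives used DESeq2 1.42.0, limma 3.58.1 voom, other scalings and filters, offsets from loess curves (span 0.5) of length or of length and mean level, added pseudogene rows, each library left out and a replicate block. Fits were tested on simulated data. CPM use TMM-scaled totals, and log2 CPM a prior count of 2. Values per library were given by rule for 18 members: the 5 highest per kb, the 5 lowest and 5 highest fold changes, and listed paralogs, of which some are not reported here. Up to 3 genes of each pathway list with the smallest adjusted p were named with values.

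A member's transcript was a coding one of GENCODE vM21, picked by its basic tag, then by its APPRIS rank, then by nearness to the deposited length. Some were far from that length, as for Rps20, with 3706 bases against 502. The percent of unique windows holds for the picked transcript only. Counting error is small beside replicate spread except for Rpl39, Rpl39l, Rpl3l and Rps27, with 251 to 1569 counts over 9 libraries. The limit for 0 counts, 3 counts of the total, covers counting error only.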

Additional observations from a re-analysis of the deposited data

How the results depend on the processing

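The number of members called lower stayed within 1.5 times of 73, and none was called higher, under DESeq2, voom, other scalings, other filters, added pseudogene rows, the replicate block and each library left out (64 to 78). All genes called lower ranged from 1074 to 1521 and higher from 772 to 1434 with 1 library left out, against 1409 and 1152 with all 9. The median of the members then ranged from -0.74 to -0.57, and their gap to other genes of the whole length range from -0.77 to -0.59.

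With library totals only, 65 members were lower and none higher, the median of all genes moved from 0.04 to 0.15, 1966 genes were higher, and 66.0% of calls were higher, against 45.0%. The gap was -0.77 without a filter on low counts and -0.42 against genes between the 10th and 90th percentile of member length.

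With the curve of length, 34 members were lower and 4 higher, 871 of all genes were lower, 58.1% of calls were higher, the median was -0.23 and the gap -0.30. The curve fitted without members gave 36 lower, 4 higher, 883 of all genes lower, a median of -0.24 and a gap of -0.31. The curve of length and level gave 21 lower, 9 higher, 765 of all genes lower, 65.4% of calls higher, a median of -0.13 and a gap of -0.18. The log2 fold change of Rpl36al turned to 0.032, 0.012 and 0.12 under these 3 curves, that of Rpl8 to 0.086, 0.076 and 0.21, and that of Rps29 to 0.53, 0.51 and 0.62. The calls of Rpl22l1, Rplp1 and Rps15 ended under the curve of length (-0.057, -0.088 and -0.017, adjusted p = 0.71, 0.367 and 0.887, edgeR), and under the curve of length and level their values turned to 0.011, 0.092 and 0.14, while Rps14 lost its call (adjusted p = 0.0811). The call of Rpl8 also ended with library totals only (adjusted p = 0.0778), and that of Rpl3l under the replicate block with the curve of length (adjusted p = 0.0571). The cause was not tested.

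Correlations of deviations from the group mean were -0.0565 to 0.115 over 4 pairs of same-numbered libraries and -0.115 to 0.0813 over the other pairs. The labels do not say whether the numbers pair the libraries, and these few correlations cannot decide it. The replicate block left 69 members lower and 749 of all genes higher. With the curve of length it gave 24 lower, 3 higher, 541 and 634 of all genes lower and higher, a median of -0.19, a gap of -0.30, and 0.047, 0.084 and 0.54 for Rpl36al, Rpl8 and Rps29.

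The share of counts became 2.28% in Suz12 cKO libraries and 3.24% in wild type libraries with rows named as pseudogenes added. It became 2.75% and 3.91% with the pseudogene copies that share windows added, an alternative chosen after seeing the data. Depth limits Rpl39, Rpl39l and Rpl3l, with 251, 647 and 776 counts in all.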
